A study of Homo sapiens with 6 samples.

Results

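Interferon-stimulated genes are the transcripts that cells switch on when they detect viral nucleic acid or receive interferon, and 40 of them were followed here in SW480 cells after plasmid transfection. The set held 41 named genes, taken by gene symbol from the probe-to-gene table. A row with 1 gene symbol was found for 40 of the 41 among the 23752 genes measured, and STAT2 was not analysed here. Of the 40, 3 were sensors of foreign RNA or their cofactors, 3 were transcription factors, 32 were effectors and 2 were chemokines.

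SW480 is an established cell line from a human colorectal adenocarcinoma. The TUSC3 group (3 arrays) was transiently transfected, by the reagent Turbofect, with the plasmid pTarget carrying TUSC3, which encodes a subunit of the oligosaccharyltransferase. The EV group (3 arrays) received pTarget with no insert by the same reagent. Plasmid and reagent are thus shared by both groups, no untransfected cells are among the arrays analysed here, and what transfection by itself does to these genes cannot be told apart from their resting level. In a transient transfection a culture holds cells with and without plasmid, and the sources used here do not give the time between transfection and RNA extraction.

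Foreign RNA in the cytosol is bound by helicases such as RIG-I and MDA5, which signal through MAVS, and foreign DNA, including transfected plasmid, can be bound by cGAS, which signals through STING. Both routes activate the kinase TBK1 and the factor IRF3 and lead to interferon genes being transcribed. Secreted interferon then acts through its receptors and the kinases JAK1 and TYK2 to activate a complex that contains STAT2 and IRF9 and binds the interferon-stimulated response element (ISRE) in the promoters of its target genes. Epithelial cells of the gut use this system as a barrier against enteric viruses.

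Levels are log2 RMA values, on which a step of 1 is a doubling of array signal. TUSC3 read 13.13, 13.11 and 13.09 in the TUSC3 arrays and 4.57, 4.33 and 4.63 in the EV arrays, a difference of 8.60 (limma, adjusted p = 7.71e-08). Of 10 colorectal epithelial markers 8 read above the level of olfactory receptor genes defined below, and EPCAM averaged 12.39 ± 0.075 in TUSC3 arrays and 12.44 ± 0.043 in EV arrays (SD, n = 3 each). KRT20 and LGR5 did not. The pan-leukocyte gene PTPRC averaged 2.66 in TUSC3 arrays and 2.55 in EV arrays, within the olfactory receptor range. Above the olfactory receptor level, by mean over the 6 arrays, lay 5 of 11 leukocyte markers (LYZ, CD68, CD79A, FCGR3A and NKG7). So did 0 of 5 plasmacytoid dendritic cell markers and 3 of 8 fibroblast markers. NKG7 (4.82), FCGR3A (4.89) and the fibroblast marker COL1A2 (4.95) lay close to it, above each array's own level on 3, 5 and 5 arrays. None of these marker genes passed the threshold between the groups (limma), and an unadjusted p under 0.05 was seen for 1 plasmacytoid dendritic cell and 1 fibroblast marker, both lower in TUSC3 (against 3.3% of all genes).

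As a yardstick for silent genes, 352 olfactory receptor genes, most of which serve the nasal epithelium, read from 2.24 to 6.53 with a median of 3.07, and 95% of them lay at or under 4.76. Of the 40 interferon-stimulated genes 25 read above 4.76 and 15 did not, against 58.2% of all genes above it. The split was the same on each of the 6 arrays, with 25 genes above that array's own olfactory 95th percentile. SAMD9 (mean of 6 arrays 5.05) and BST2 (5.09) lay just above the line and IFIT3 (4.34) just below. At the stricter 99th percentile (5.90), 16 of the 40 genes lay above. For all genes, that line falls between IRF9 (5.897), which stood at percentile 53.5 of all genes, and IRF7 (5.917), at percentile 53.7. Probe sets differ in affinity, so these readings place each signal in the range of its array and do not rank the transcripts by amount.

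**Figure D1:**
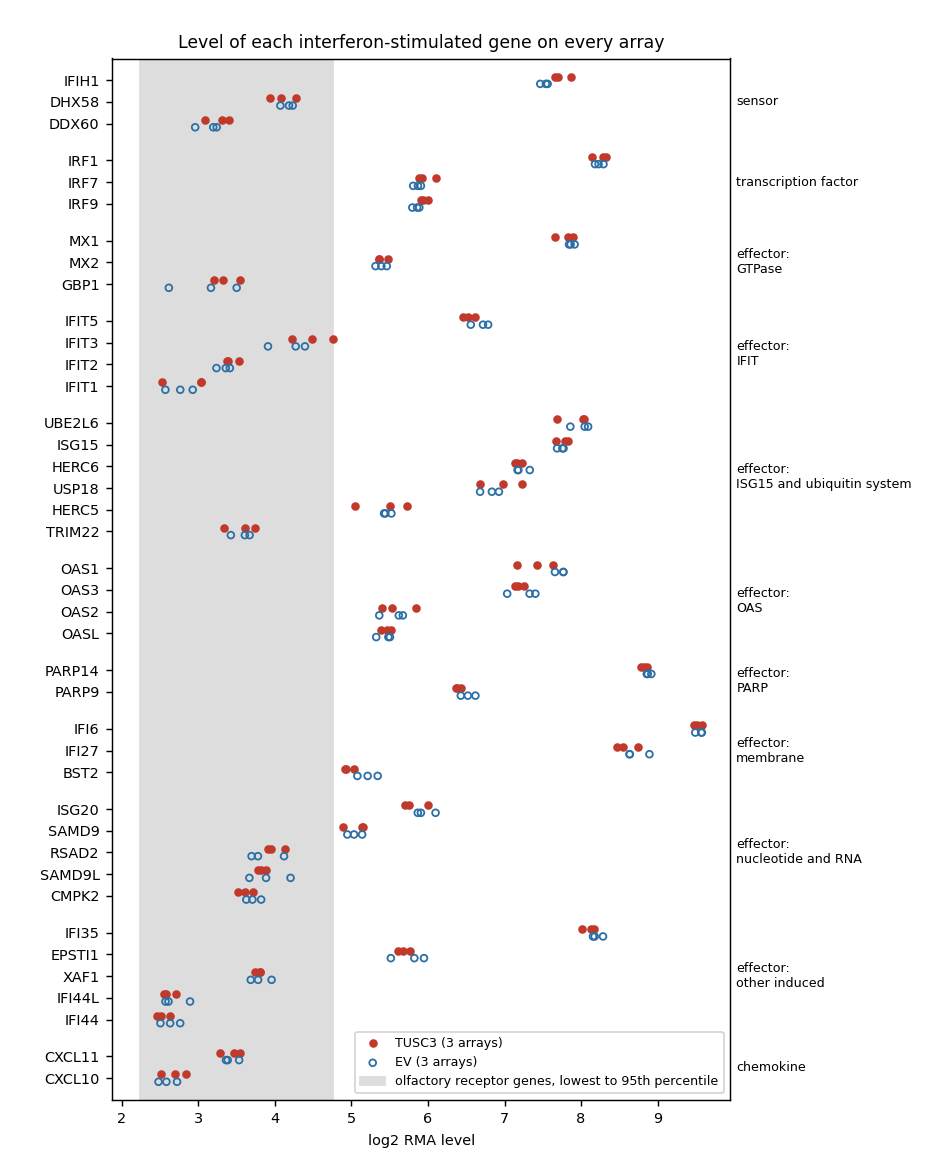
Log2 RMA level of each of the 40 interferon-stimulated genes on the 3 TUSC3 arrays (filled) and 3 EV arrays (open), grouped by role, with the range of olfactory receptor genes from the lowest to their 95th percentile shaded. The arrays of the groups overlap except for IFIH1, IRF9, OAS1, BST2 and PARP14, and 15 of the 40 sit inside the shaded range.

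Among the sensors, IFIH1 read well above the olfactory range and DHX58 and DDX60 inside it. IFIH1, which encodes the double-stranded RNA sensor MDA5, read 7.71, 7.87 and 7.66 in TUSC3 arrays and 7.56, 7.54 and 7.47 in EV arrays. Every TUSC3 array lay above every EV array, and the difference was 0.22 with a 95% interval of 0.03 to 0.41 (limma, unadjusted p = 0.0270, adjusted p = 0.740), which did not pass. DHX58, which encodes the regulatory helicase LGP2, read 4.08, 3.94 and 4.27 in TUSC3 arrays and 4.23, 4.18 and 4.07 in EV arrays. DDX60, a helicase-like antiviral gene, read 3.31, 3.40 and 3.09 in TUSC3 arrays and 3.19, 2.96 and 3.24 in EV arrays. The groups overlapped for both, with differences of -0.07 for DHX58 and 0.14 for DDX60.

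The 3 transcription factor genes all read above the olfactory 95th percentile in both groups. IRF1, a factor induced by interferon gamma and many other stimuli, read 8.14, 8.33 and 8.28 in TUSC3 arrays and 8.23, 8.18 and 8.29 in EV arrays. IRF7, the amplifier of interferon alpha production, read 6.11, 5.88 and 5.92 in TUSC3 arrays and 5.87, 5.81 and 5.91 in EV arrays. These groups overlapped, with a difference of 0.02 (interval -0.17 to 0.20) for IRF1 and 0.11 (-0.08 to 0.30) for IRF7. IRF9, the DNA-binding subunit of the complex that reads the ISRE, read 5.915, 5.996 and 5.931 in TUSC3 arrays and 5.796, 5.887 and 5.858 in EV arrays. The IRF9 groups did not overlap, but the difference of 0.10 did not pass (limma, adjusted p = 0.817).

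Of the 32 effector genes 21 lay above the olfactory 95th percentile. IFI6, a membrane protein gene with antiviral and survival functions, had the highest reading of the 40 genes, with 9.48, 9.58 and 9.51 in TUSC3 arrays and 9.58, 9.57 and 9.49 in EV arrays. PARP14, a mono-ADP-ribosyltransferase gene, read 8.79, 8.82 and 8.86 in TUSC3 arrays and 8.87, 8.92 and 8.86 in EV arrays. IFI27, a small membrane protein gene, read 8.46, 8.55 and 8.74 in TUSC3 arrays and 8.63, 8.64 and 8.89 in EV arrays. IFI6 and IFI27 overlapped between the groups, and PARP14 was separated by a difference of only -0.06 (interval -0.21 to 0.09).

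IFI35, whose product modulates innate signalling, read 8.18, 8.01 and 8.13 in TUSC3 arrays and 8.18, 8.29 and 8.16 in EV arrays. UBE2L6, the conjugating enzyme that attaches ISG15 to proteins, read 8.03, 8.04 and 7.69 in TUSC3 arrays and 8.05, 8.09 and 7.86 in EV arrays. Both genes overlapped between the groups, and for UBE2L6 the third array of each group was its lowest. ISG15, the ubiquitin-like modifier itself, averaged 7.76 ± 0.082 in TUSC3 arrays and 7.74 ± 0.045 in EV arrays (SD, n = 3 each), and USP18, which removes it, 6.96 ± 0.28 and 6.81 ± 0.12. The ligases HERC5 and HERC6 also lay above the olfactory line and differed by -0.03 and -0.05, while TRIM22, an antiviral ubiquitin ligase gene, lay inside the range with means of 3.57 in both groups.

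All 4 genes of the oligoadenylate synthetase family, which includes sensors of double-stranded RNA, lay above the olfactory 95th percentile. OAS1 read 7.16, 7.63 and 7.42 in TUSC3 arrays and 7.77, 7.66 and 7.77 in EV arrays. The TUSC3 arrays all lay below, and the OAS1 difference of -0.33, with an interval of -0.61 to -0.04, was the most negative of the 40 and did not pass (limma, unadjusted p = 0.0307, adjusted p = 0.740). Its neighbours on chromosome 12 differed by -0.06 (OAS3) and 0.04 (OAS2), and OASL by 0.01. The GTPase genes MX1 and MX2, which block viral replication, averaged 7.80 and 5.40 in TUSC3 arrays and 7.87 and 5.39 in EV arrays.

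In the IFIT family, whose proteins bind viral RNA and restrict its translation, 1 of 4 genes lay above the olfactory line. IFIT5 read 6.46, 6.53 and 6.62 in TUSC3 arrays and 6.72, 6.56 and 6.79 in EV arrays, with a difference of -0.15. IFIT3 read 4.22, 4.76 and 4.49 in TUSC3 arrays and 4.39, 3.91 and 4.27 in EV arrays. Its difference of 0.30 was the most positive of the 40, with a wide interval of -0.10 to 0.70 and overlapping groups. It was 0.16 without TUSC3 replicate 2 and likewise without EV replicate 2, and GBP1 lay above it without EV replicate 3 (0.46 for GBP1, 0.34 for IFIT3). IFIT1 and IFIT2, textbook reporters of interferon exposure, averaged 2.86 and 3.43 in TUSC3 arrays and 2.75 and 3.34 in EV arrays, both inside the olfactory range. The 4 genes lie side by side on chromosome 10 (GRCh38.p14, 89302046 to 89420997), so neighbours in that cluster read on either side of the line.

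BST2, which encodes tetherin, a membrane protein that holds budding virus on the cell surface, read 4.93, 4.91 and 5.04 in TUSC3 arrays and 5.34, 5.21 and 5.08 in EV arrays. All TUSC3 arrays lay below all EV arrays. With a difference of -0.25 and an interval of -0.46 to -0.04, BST2 had the smallest p of the 40 and did not pass (limma, unadjusted p = 0.0249, adjusted p = 0.740). PARP9, the partner of a ubiquitin ligase in the interferon response, read 6.38, 6.37 and 6.43 in TUSC3 arrays and 6.52, 6.62 and 6.43 in EV arrays, with a difference of -0.13 and groups that overlapped only at their edges.

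The other effectors were spread over both sides of the line. ISG20, an RNA exonuclease gene, EPSTI1 and SAMD9, a translation-restricting host factor gene, lay above it, with differences of -0.15, -0.08 and 0.02. RSAD2, which encodes viperin, and its neighbour CMPK2, a nucleotide kinase gene, lay inside the range with differences of 0.13 and -0.10. So did SAMD9L, XAF1, IFI44L, IFI44 and the GTPase gene GBP1. The lowest mean over the 6 arrays was that of IFI44, with 2.53 in TUSC3 arrays and 2.63 in EV arrays.

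The chemokine genes CXCL10 and CXCL11, whose products attract T cells through CXCR3, both lay inside the olfactory range. CXCL10 read 2.51, 2.70 and 2.83 in TUSC3 arrays and 2.58, 2.72 and 2.48 in EV arrays. CXCL11 read 3.55, 3.29 and 3.47 in TUSC3 arrays and 3.38, 3.36 and 3.53 in EV arrays. The arrays of the groups overlapped for both genes, with differences of 0.09 and 0.01.

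What these genes share in sequence was read from the bases before their starts, because the ISRE is the element through which interferon acts on them. The 250 bases before each start in RefSeq's promoter table (GRCh38.p14) were searched for the ISRE core GAAANNGAAA on either strand (TTTCNNTTTC on the other), counting overlapping matches separately. Of the 32 genes with an entry, 22 held a core before at least 1 start (68.8%), against 3.71% of the 27305 genes in the table and 3.54% of those measured on the arrays. A pair or more of cores before 1 start was found in 12 of the 32 (37.5%), against 0.275% of all genes. At least 1 core was found in 14 of 20 genes above the olfactory line (70.0%) and in 8 of 12 not above it (66.7%). IFIT2, MX2, OAS2, OASL, DHX58, USP18, IRF7 and TRIM22 had no entry.

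The next sequences show what the element looks like before genes that were picked for holding it, at both ends of their range of levels. IRF1, IFI35 and UBE2L6 read higher than MX1 and held no core. Each is 120 bases on the strand of the gene, 5′ to 3′, from RefSeq's table, and capitals mark ISRE cores. The 4 with the highest mean over the 6 arrays among genes with a core were IFI6 (chr1:27672239-27672358, minus strand), PARP14 (chr3:122680719-122680838, plus strand), IFI27 (chr14:94110616-94110735, plus strand, before the first of 2 listed starts) and MX1 (chr21:41431844-41431963, plus strand, before the third of 3 listed starts).
IFI6: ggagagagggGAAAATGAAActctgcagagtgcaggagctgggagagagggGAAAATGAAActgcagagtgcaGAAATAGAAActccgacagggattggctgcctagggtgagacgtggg
PARP14: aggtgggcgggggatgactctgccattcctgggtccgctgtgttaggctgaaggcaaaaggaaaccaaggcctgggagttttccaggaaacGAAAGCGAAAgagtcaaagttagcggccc
IFI27: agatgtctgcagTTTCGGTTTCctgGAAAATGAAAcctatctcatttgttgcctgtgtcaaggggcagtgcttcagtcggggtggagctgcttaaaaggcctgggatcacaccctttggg
MX1: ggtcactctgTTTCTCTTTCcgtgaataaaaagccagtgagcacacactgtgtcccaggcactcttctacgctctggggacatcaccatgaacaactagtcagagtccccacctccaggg

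The 4 genes with a core and the lowest means were IFI44 (chr1:78649669-78649788, plus strand, before the first of 2 listed starts), CXCL10 (chr4:76023609-76023728, minus strand), IFI44L (chr1:78620274-78620393, plus strand) and IFIT1 (chr10:89392503-89392622, plus strand). This second set was chosen after the levels were seen.
IFI44: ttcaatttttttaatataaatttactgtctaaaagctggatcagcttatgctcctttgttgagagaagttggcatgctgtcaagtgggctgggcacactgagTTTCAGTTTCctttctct
CXCL10: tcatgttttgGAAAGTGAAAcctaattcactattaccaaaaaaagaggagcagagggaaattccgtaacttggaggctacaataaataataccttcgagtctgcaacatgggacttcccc
IFI44L: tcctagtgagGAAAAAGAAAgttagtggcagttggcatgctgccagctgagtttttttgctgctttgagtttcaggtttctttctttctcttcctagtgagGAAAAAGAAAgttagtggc
IFIT1: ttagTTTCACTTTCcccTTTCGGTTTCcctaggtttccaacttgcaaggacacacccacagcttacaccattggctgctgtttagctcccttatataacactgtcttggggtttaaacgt

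IFI6 carried 3 cores and IFIT1 carried 2, while their mean levels over the 6 arrays were 9.54 and 2.81. A second motif, the palindrome TTCNNNGAA that STAT dimers recognise, was found before 11 of the 32 genes (34.4%), against 8.09% of all genes in the table. It stood before 9 of 20 genes above the olfactory line (45.0%) and 2 of 12 not above it (16.7%). IRF1, IRF9, OAS1, IFI35 and CXCL11 held this motif and no ISRE core of the pattern searched. Cores with any other spacing of the GAAA repeats were not searched for. In MX1, IFI27, BST2 and EPSTI1 the palindrome overlapped a core. A match of letters is a description of the sequence, and binding was not measured.

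**Figure D2:**
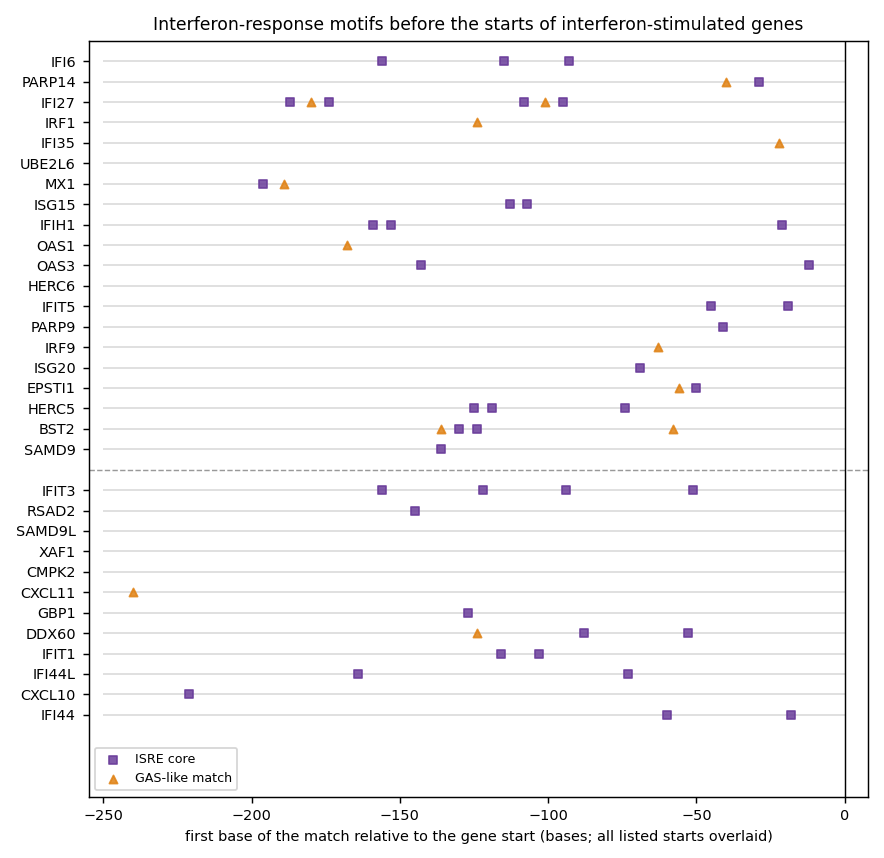
Position of ISRE cores (squares) and of the STAT-type palindrome (triangles) in the 250 bases before the starts of the 32 genes with a promoter entry, ordered by mean level from the top, all listed starts overlaid, with a dashed line between genes above and not above the olfactory 95th percentile. Cores stand before 14 of 20 genes above the line and 8 of 12 below it.

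Between TUSC3 and EV none of the 40 genes passed the threshold. The number past an adjusted p of 0.05 was 0 of 40 (limma), against 0.00421% of all genes, which was TUSC3 itself. At an unadjusted p under 0.05 there were 3, of which IFIH1 was higher in TUSC3 (1 of 40, against 3.41% of all genes) and OAS1 and BST2 were lower (2 of 40, against 3.3%). The TUSC3 arrays lay entirely above the EV arrays for 2 genes, IFIH1 and IRF9, against 6.17% of all genes. They lay entirely below for 3, OAS1, BST2 and PARP14, against 6.08%. These shares lie near the background.

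The size of the differences in array signal is bounded by their intervals, given the spread between these samples. For 37 of the 40 the 95% interval stayed within a change of 1.5-fold in either direction (92.5%, against 91.1% of all genes), and the exceptions were IFIT3, GBP1 and OAS1. These were 24 of the 25 genes above the olfactory 95th percentile and 13 of the 15 not above it. For the 15, the interval bounds the signal, and what it says of the transcript was not tested. By line, the shares over all genes were 94.2% above and 86.8% not above. The differences ran from -0.33 for OAS1 to 0.30 for IFIT3, with 18 genes higher in TUSC3 (45.0%, against 50.4% of all genes) and 22 lower. Their median was -0.02 against 0.0013 over all genes, and the median size without sign was 0.089 against 0.078. The spread between replicates (median pooled SD) was 0.12 for these genes and likewise 0.12 over all genes. A difference in array signal cannot tell a change in every cell from a change in the share of cells that took up plasmid.

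**Figure D3:**
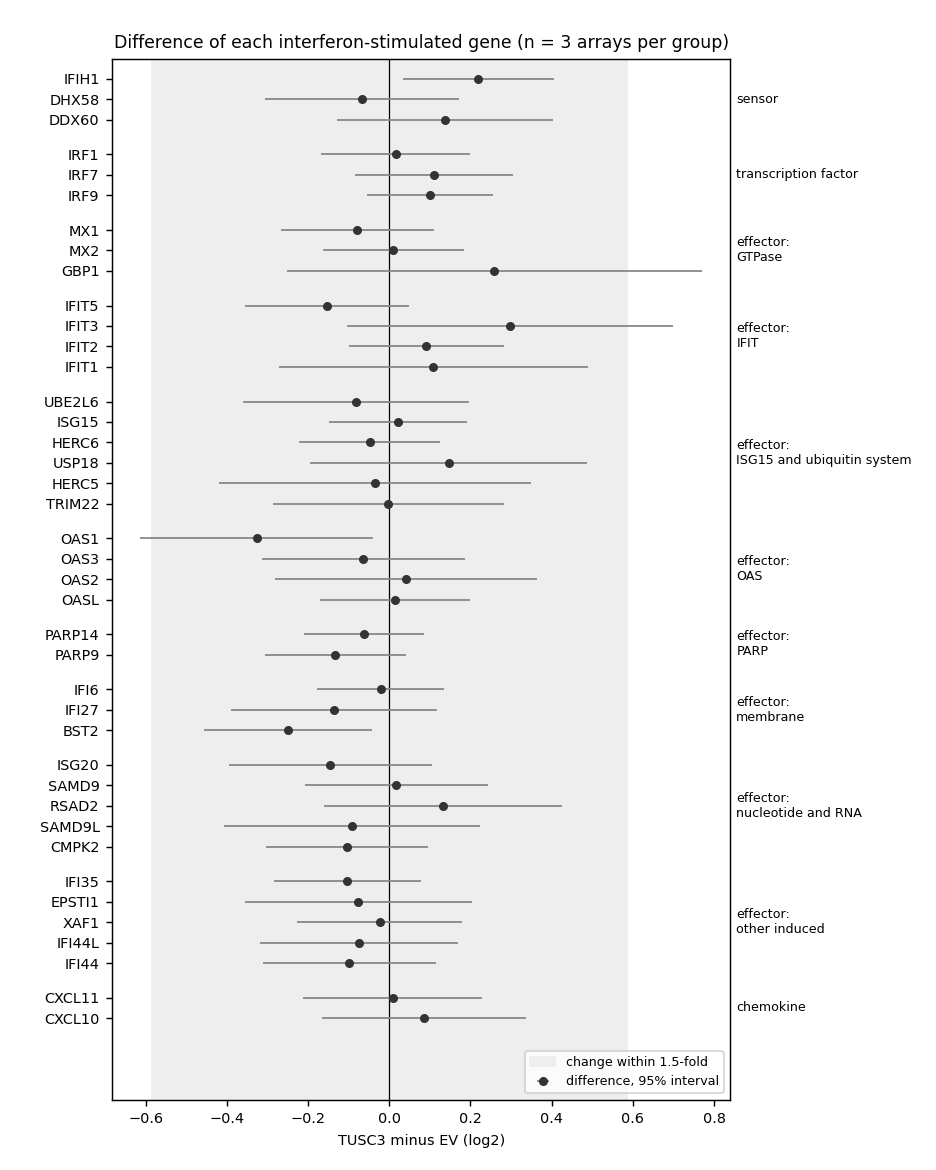
TUSC3 minus EV difference (log2) of each of the 40 interferon-stimulated genes with its 95% interval from limma (n = 3 arrays per group), and a change within 1.5-fold shaded. For 37 of the 40 the interval stays inside the shading, and IFIT3, GBP1 and OAS1 reach beyond it.

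By role, the differences of the 3 transcription factor genes were above 0, with a median of 0.10, and so were those of the 2 chemokine genes, with a median of 0.05 (against 50.4% of all genes). The signs of IRF1 and CXCL11 rest on single arrays. IRF1 was at -0.02 without TUSC3 replicate 2, and CXCL11 at -0.05 without TUSC3 replicate 1. IRF7, IRF9 and CXCL10 kept their sign without each array in turn. The 3 sensors had a median of 0.14, with 2 higher. Of the 32 effectors 21 were lower and 11 higher (34.4%, against 50.4% of all genes), with a median of -0.06. Several of these signs rest on single arrays as well. UBE2L6 was at 0.03 without TUSC3 replicate 3, and OAS2 at -0.09 without TUSC3 replicate 1. Both PARP genes, all 3 membrane genes and all 5 genes of the group IFI35, IFI44, IFI44L, XAF1 and EPSTI1 had differences below 0, and 3 of the 4 IFIT genes above 0. In the group of 5, XAF1 was at 0.05 and EPSTI1 at 0.02 without EV replicate 3, and IFI44L at 0.02 without EV replicate 1. None of these groups had a member past the threshold.

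The 25 genes above the olfactory 95th percentile had a median difference of -0.05, with 15 lower. The 15 not above it had one of 0.01, with 7 lower. Genes near each other in the genome had differences of either sign. The pairs PARP9 and PARP14 on chromosome 3, HERC6 and HERC5 on chromosome 4, and IFI44L and IFI44 on chromosome 1 had both differences below 0, and CXCL10 and CXCL11 on chromosome 4 had both above 0. CMPK2 and RSAD2 on chromosome 2, SAMD9 and SAMD9L on chromosome 7, and MX2 and MX1 on chromosome 21 had opposite signs. Of the pairs with 1 sign, only PARP9 and PARP14 kept it without each array in turn, HERC5 being at 0.15 without TUSC3 replicate 2.

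The arrays were also compared singly over the set. Relative to each gene's own mean over the 6 arrays, the median deviation was 0.02, -0.03 and -0.0005 on TUSC3 replicates 1 to 3, and 0.0012, 0.03 and -0.0013 on EV replicates 1 to 3. TUSC3 replicate 2 held the highest reading for 8 of the 40 genes and the lowest for 11. EV replicate 1 held the highest for 4 and the lowest for 8. The widest single deviation was that of GBP1, which read 3.32, 3.20 and 3.54 on the TUSC3 arrays and 2.62, 3.17 and 3.50 on the EV arrays, lowest on EV replicate 1, without which its difference was 0.02. OAS1 was lowest on TUSC3 replicate 1, and its difference was -0.21 without that array.

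**Figure D4:**
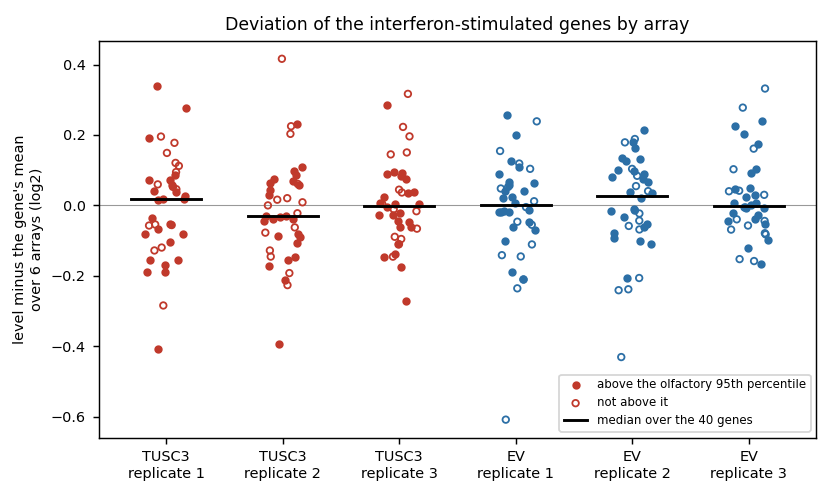
Level of each of the 40 interferon-stimulated genes minus its mean over the 6 arrays (log2), by array, with TUSC3 arrays in red and EV arrays in blue, genes above the olfactory 95th percentile filled and the others open. The black lines are medians over the 40 genes and lie between -0.03 and 0.03 on every array.

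Upstream of these genes, the interferon ligand genes mostly read like silent genes. Of 19 measured, 3 lay above the olfactory 95th percentile, namely IFNA14, IFNL2 and IFNL3. The interferon alpha genes, and likewise IFNL2 and IFNL3, are near-identical copies whose probe sets may share signal, so each such reading is uncertain. IFNB1, the interferon that nucleic acid sensors induce in most cell types, read 3.02, 3.19 and 3.20 in TUSC3 arrays and 3.28, 3.17 and 3.06 in EV arrays, inside the range and overlapping. IFNA14 averaged 7.60 ± 0.30 in TUSC3 arrays and 7.52 ± 0.17 in EV arrays, and IFNL3 averaged 6.92 ± 0.072 and 6.93 ± 0.058 (SD, n = 3 each). The ligand genes with the smallest p were IFNA16, at -0.42, and IFNA5, at -0.37 (limma, adjusted p = 0.732 and 0.741), and 0 of 19 passed. These 2 of 19, both lower, were the ligand genes with an unadjusted p under 0.05, against 3.3% of all genes.

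The genes for receptors, kinases and feedback inhibitors of the interferon signal all read above the olfactory line, 11 of 11 measured (12 listed). Between the groups 0 passed (limma, with 0 also at an unadjusted p under 0.05). JAK1 averaged 10.53 in TUSC3 arrays and 10.54 in EV arrays, and the receptor subunit gene IFNAR1 averaged 10.31 and 10.33. The feedback inhibitors SOCS3 and SOCS1 had the smallest p of this list, with differences of 0.22 and 0.09 (limma, adjusted p = 0.756 and 0.841).

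Of 17 genes of nucleic acid sensing 12 lay above the line and 0 passed (limma, with 1 higher, IFI16, and 1 lower, RIGI, at an unadjusted p under 0.05, against 3.41% and 3.3% of all genes). CGAS, the cytosolic DNA sensor gene, read 2.93, 2.57 and 2.77 in TUSC3 arrays and 2.91, 3.05 and 2.73 in EV arrays, inside the olfactory range on all 6 arrays. STING1, which encodes the adaptor that CGAS signals to, read 8.127, 7.808 and 7.947 in TUSC3 arrays and 7.995, 8.209 and 8.041 in EV arrays. The adaptor gene lay above the range on all 6 arrays, and its groups overlapped. IFI16, another DNA sensor gene, read 3.12, 3.17 and 3.27 in TUSC3 arrays and 2.82, 2.77 and 2.89 in EV arrays. Its groups did not overlap, as for 6.17% of all genes in that direction, but the difference of 0.36 lay inside the olfactory range of levels and did not pass (limma, unadjusted p = 0.00178, adjusted p = 0.731).

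RIGI, which encodes RIG-I, the sensor related to IFIH1, read 7.42, 7.51 and 7.33 in TUSC3 arrays and 7.59, 7.71 and 7.54 in EV arrays. All its TUSC3 arrays lay below, as for 6.08% of all genes, at a difference of -0.19 (limma, adjusted p = 0.741), while IFIH1 lay above in all of them. TRIM25, the ligase that activates RIG-I, averaged 9.86 in TUSC3 arrays and 10.00 in EV arrays, and the helicase gene DDX41 9.87 and 9.83.

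A further 32 interferon-stimulated genes outside the 41 were listed, of which 31 were measured, 27 lay above the olfactory line and 0 passed (limma, with 3 of 31 at an unadjusted p under 0.05, all lower, against 3.3% of all genes). IFITM3, which blocks viral entry by membrane fusion, averaged 12.33 in TUSC3 arrays and 12.34 in EV arrays, and EIF2AK2, the double-stranded RNA-activated kinase PKR, averaged 10.45 and 10.47. IFITM1 differed by -0.22 and the transcription factor gene IRF2 by -0.19, the members with the smallest p (limma, adjusted p = 0.740 for each). In this list 21 were lower and 10 higher (32.3%, against 50.4% of all genes), with a median of -0.02.

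**Figure D5:**
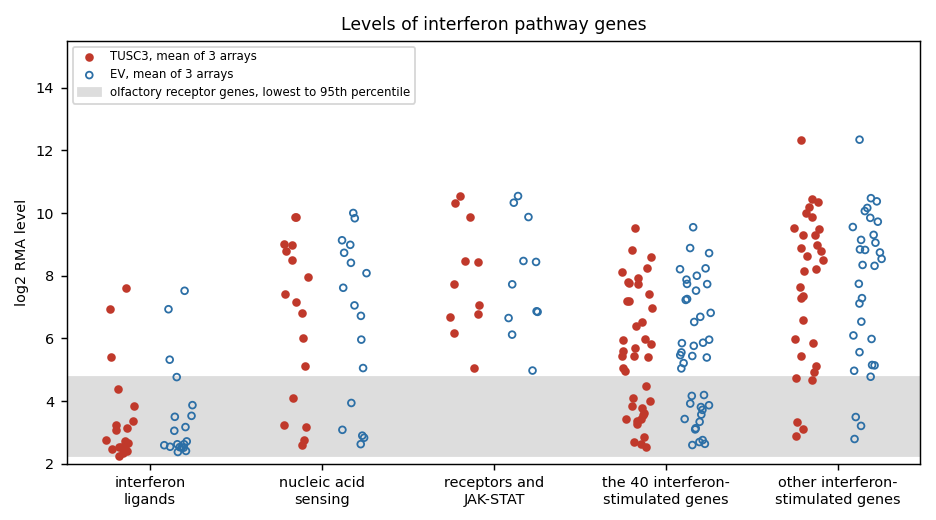
Mean log2 RMA level over 3 arrays of every measured gene of 5 groups of interferon pathway genes, TUSC3 arrays filled and EV arrays open, with the range of olfactory receptor genes from the lowest to their 95th percentile shaded. Genes for receptors, kinases and feedback inhibitors lie above the shading (11 of 11). Of the ligand genes 16 of 19 have a mean over the 6 arrays within it, and the points of both groups cover the same ranges.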

How the data were processed

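Per the submitters' processing notes, the authors made the values with RMA, which corrects background, equalises the arrays and summarises probes, and the deposited values are log2 levels, 1 per probe set and array. The sources used here name neither the array model nor a version of RMA. All arrays share nearly the same distribution (median 5.50), so a shift of most genes cannot be seen and precision is set by having 3 arrays a group. TUSC3 replicate 1 held 22765 different values, against 9648 on every other array. Its minimum (2.02502 against 2.0249), median (5.4978 against 5.49756) and maximum (14.05697 against 14.05664) also differed slightly from those of the others. The cause was not tested. The labels do not say whether replicates were separate cultures, so the spread behind each p-value is that between these samples and may be technical.

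The 23752 of 25088 probe sets with 1 symbol entered a two-sided test by lmFit and eBayes of limma 3.58.1, run in R 4.3.3, with Benjamini-Hochberg adjustment over all 23752 and a threshold of 0.05. An exact permutation test of 3 against 3 cannot go below 0.1. The procedure was also run on simulated data as a self-test, and no result given here draws on it. Given array by array are the sensors, transcription factors, chemokines, the 6 genes with the smallest p and the 6 with the highest mean. Named from each other pathway list, mostly by means or differences, are the 2 with the smallest p and the 2 with the highest mean, with CGAS, STING1 and IFNB1. GBP1 was shown by array in addition after its values were seen. The genes and lists were chosen with earlier results of these data known, and the olfactory line after levels were seen. Alternatives were another quantile normalization, median shifts, dropping the dimmest 30%, a trended and robust prior, array weights, a replicate block, all probe sets, and leaving out each array.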

Additional observations from a re-analysis of the deposited data

How the results depend on the processing

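In all 13 alternatives 0 of the 40 genes passed, with a lowest adjusted p between 0.544 (trended and robust prior) and 0.838 (without TUSC3 replicate 1). With the replicate block it was 0.779, 0 of the 40 passed, and the block changed no call. The labels do not tie same-numbered arrays together, and their deviations from the group means correlated at -0.014, 0.043 and -0.011 across genes. Without the dimmest 30% of genes 28 of the 40 were tested. Over all genes 1 passed, TUSC3, except with the trended and robust prior, where 2 passed, SAA1 being added (the cause was not tested). The TUSC3 difference stayed past the threshold in every alternative and ran from 8.51 to 8.66 without 1 array. The median difference of the 40 genes stayed between -0.04 and 0.01 in the alternatives run on it, and was above 0 only without EV replicate 3. Of 508 single values 31, from 18 genes, changed sign, all in genes that differed by at most 0.092 to begin with and none past the threshold. The trended prior, the replicate block, all probe sets and dropping dim genes leave each difference unchanged, so no sign could change there. Leaving out 1 array changed the sign of 3 to 6 of the 40 genes each time, and array weights that of 1. The count above the olfactory level was 26 at the 90th percentile and 16 at the 99th (a higher line by construction), and it stayed at 25 in TUSC3 arrays alone, in EV arrays alone and without each array. These alternatives of the olfactory level were chosen after seeing the data. No detection call was used, and signal over background was not tested gene by gene.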
